A study of Homo sapiens with 28 samples.

Results

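Tumours of the human liver carcinoma line Hep3B were compared with tumours of 3 other human liver tumour lines. All were grown in ovo, as grafts on the chorioallantoic membrane, a vessel-rich membrane of the chick egg on which human cells form nodules. The comparison set the 4 Hep3B tumour libraries, lettered B to E in the deposited table and numbered 1 to 4 here, against the 12 other tumour libraries. These were 4 each of HepG2, HuH7 and PLC/PRF/5, and each line had the same weight in their mean. These 16 libraries belong to a series of 28, whose other 12 are cultures of the same lines in vitro (3 per line). HepG2 comes from a hepatoblastoma, HuH7 and PLC/PRF/5 from carcinomas, and each line is a single established line, so a difference between lines is not a difference between tumour types. No group carried a drug or an introduced allele. Grafting was at embryonic day 9 and removal at embryonic day 18. Tumour RNA passed through a midi column and culture RNA through a mini column, so setting and column kit cannot be told apart, although both kits were the same for all lines. No label ties replicates to separate eggs or cultures, so the spread behind the p-values is that among libraries and may be technical. The question is which genes set Hep3B apart from the other lines in tumours, and which of these differences were absent or reversed between the same lines in culture.

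Hepatocytes make most of the proteins of blood plasma, among them albumin, transferrin, apolipoproteins, clotting factors, complement and protease inhibitors. They also convert ammonia to urea, break down amino acids, and make cholesterol, fatty acids and bile acids. These programmes depend on transcription factors such as HNF4A, and liver tumour lines keep them to differing degrees. Hep3B is known as a line that carries hepatitis B virus DNA, and it has kept many fetal liver features.

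Each gene was read by a single amplicon, a short stretch of its messenger RNA copied by a primer pair. The amplicons of 8 genes that the results turn on are shown 5′ to 3′ on the coding strand, so that a reader can see which part of each transcript a level stands for. Capitals mark the second exon of an amplicon that spans 2 exons, and an amplicon within 1 exon is in lower case throughout. All 8 lie in coding sequence of GENCODE 29 transcripts (GRCh38). The first 6 are read from genes higher in Hep3B tumours and the last 2 from genes lower there.
UROC1: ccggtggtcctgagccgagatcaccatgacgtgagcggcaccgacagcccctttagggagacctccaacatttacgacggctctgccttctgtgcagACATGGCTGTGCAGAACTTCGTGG
PLG: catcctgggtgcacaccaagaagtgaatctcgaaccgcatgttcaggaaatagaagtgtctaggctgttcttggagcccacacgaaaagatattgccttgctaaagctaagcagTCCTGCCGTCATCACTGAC
ITIH1: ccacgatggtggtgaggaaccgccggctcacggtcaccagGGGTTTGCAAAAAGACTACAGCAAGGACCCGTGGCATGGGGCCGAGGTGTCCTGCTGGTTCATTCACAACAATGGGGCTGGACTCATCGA
SERPINC1: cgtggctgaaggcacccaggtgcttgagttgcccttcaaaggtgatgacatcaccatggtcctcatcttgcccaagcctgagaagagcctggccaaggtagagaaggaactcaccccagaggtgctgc
ABCG8: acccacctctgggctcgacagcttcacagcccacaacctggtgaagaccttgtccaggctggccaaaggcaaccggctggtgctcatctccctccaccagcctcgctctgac
AGR2: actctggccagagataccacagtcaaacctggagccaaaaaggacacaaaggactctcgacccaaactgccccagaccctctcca
SGK1: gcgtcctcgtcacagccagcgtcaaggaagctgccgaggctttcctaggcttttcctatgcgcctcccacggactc
ANXA2: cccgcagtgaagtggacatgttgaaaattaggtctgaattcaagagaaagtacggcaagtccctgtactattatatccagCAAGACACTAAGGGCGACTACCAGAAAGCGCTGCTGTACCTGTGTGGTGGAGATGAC
UROC1 is read at chr3:126488256-126489372 (exons 17 to 18), PLG at chr6:160739095-160741329 (exons 16 to 17), ITIH1 at chr3:52791589-52791871 (exons 21 to 22), SERPINC1 at chr1:173909696-173909823 (exon 5), ABCG8 at chr2:43852618-43852729 (exon 6) and AGR2 at chr7:16801661-16801745 (exon 2). SGK1 is read at chr6:134170278-134170353 (exon 12) and ANXA2 at chr15:60347633-60349154 (exons 12 to 13). The strand is minus for UROC1, SERPINC1, AGR2, SGK1 and ANXA2 and plus for the other 3. The span of a junction amplicon includes the intron.

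Hep3B tumour libraries held 6085750 to 15086465 reads, against 6255590 to 8592746 in the 12 other tumours. Levels are given as CPM, which scales reads to a common library total, after TMM scaling. The 20 most abundant genes took 36.7 to 45.5% of the reads of Hep3B tumours and 10.1 to 32.6% of those of other tumours, and the TMM factors were 0.431 to 0.701 and 0.683 to 1.46. Scaling to total reads alone therefore lowers the median gene of Hep3B tumours against other tumours by 0.72 on the log2 scale. Differences are reported after TMM scaling, where the median difference over all genes tested was -0.19 in tumours. A limit of 3 reads corresponds to 0.318 to 0.806 CPM in Hep3B tumours and 0.251 to 0.612 CPM in other tumours, for counting error only. All 10 hepatocyte markers were read in Hep3B tumours. Their summed level was 124800 to 225100 CPM, against 122800 to 211300 in HepG2 tumours, 3954 to 5976 in HuH7 tumours and 617.7 to 1621 in PLC/PRF/5 tumours. In each Hep3B tumour most of this sum was SERPINA1, and ALB made up very little of it (levels below). The sum therefore does not stand for all 10 markers alike. Of 10 endothelial markers 5 to 8 stood at 0 in each Hep3B tumour, and all 10 summed to 10.8 to 12.8 CPM. They summed to 4.31 to 5.15 CPM in Hep3B cultures. In other tumours the sums were 51.9 to 66.1 CPM in HepG2, 9.71 to 28.05 in HuH7 and 8.69 to 17.8 in PLC/PRF/5. The 10 leukocyte markers summed to 16.9 to 38.9 CPM, the 10 stratified epithelium markers to 0.848 to 6.99 CPM and the 6 erythroid markers measured to 0.742 to 1.61 CPM in Hep3B tumours. The amplicons are of human genes and their reading of chick RNA was not tested, so low sums do not show that chick cells were few. The 10 fibroblast markers summed to 279.3 to 528.1 CPM, nearly all of it PDGFRA, which Hep3B cultures also express (87.7, 93.9 and 89.95 CPM). Genes read mainly in a single line also appeared at low levels in tumours of other lines. Their shares were taken from CPM without TMM scaling. By the median of 5 genes of HuH7, Hep3B tumours 1 to 4 held 0.803, 2.35, 0.841 and 0.186% of the HuH7 tumour level, and by 6 genes of HepG2 0.626, 0.338, 0.112 and 0.322% of the HepG2 level. Genes of PLC/PRF/5 gave 0.0244, 0.0175, 0 and 0%. In bulk samples, fewer cells of a type and less RNA per cell cannot be told apart.

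Hep3B tumours differed from the mean of the other tumours in 8021 of 13100 genes tested (61.2%): 3437 genes were higher (26.2%) and 4584 lower (35.0%), at an adjusted p under 0.05 in limma. The same lines differed in culture in 2555 genes higher (19.5%) and 2760 lower (21.1%), together 40.6%. In 1669 genes (12.7%) the difference in tumours exceeded that in cultures and in 1675 (12.8%) it was below it, by the interaction of line and setting. 1146 genes were higher (8.75%) and 791 lower (6.04%) than in each other line taken singly. In 706 genes all 4 Hep3B tumours lay above all 12 others (5.39%) and in 394 below them (3.01%), together 8.4%. 1765 genes were higher (13.5%) and 2026 lower (15.5%) in both settings. All p-values below are limma's, adjusted over the 13100 genes, and all differences are Hep3B minus the mean of the other lines in log2 of CPM + 1, ± standard error.

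A difference was called absent in culture where Hep3B tumours differed at least 2-fold, the interaction passed in the same direction, and the 95% interval of the difference in culture lay within a log2 value of 1 on either side of 0. 441 genes higher in Hep3B tumours met this (3.37%) and 315 lower (2.4%), together 5.77%. A difference in culture could still pass the threshold within this bound. A gene called absent can therefore also be called reversed, or called in the same direction in both settings, and this overlap was not counted. It was called reversed where Hep3B differed in both settings in opposite directions and the interaction passed, which held for 173 genes higher (1.32%) and 161 lower (1.23%) in Hep3B tumours. The conditions of both classes draw on the changes between culture and tumour, so the counts of these changes that follow are a description, and nothing is read from their distance to the shares of all genes. 418 of the 441 genes rose in Hep3B tumours over Hep3B cultures, and 23 did not pass, where 25.3% of all genes tested rose. In the mean of the other lines 184 of the 441 rose, 74 fell and 183 did not pass, against 30.1% rising and 25.3% falling among all genes. Of the 315 lower genes, 251 fell in Hep3B tumours over Hep3B cultures (26.7% of all genes fell), while in the other lines 92 rose, 93 fell and 130 did not pass. 170 of the 173 reversed genes that were higher rose in Hep3B tumours, and 154 of the 161 lower ones fell. Leaving out Hep3B tumour 1 gave 663 lower absent genes and 248 lower reversed ones. Leaving out the tumours numbered 3 of all lines gave 516 lower absent genes, and 264 higher and 327 lower reversed ones. With total counts alone the absent genes were 122 higher and 1163 lower and the reversed ones 80 higher and 448 lower. The genes were not alike in their amplicons. Median GC content was 59.84% in the higher and 51.42% in the lower absent genes, against 55.62% in all genes tested, and median length 120 and 166 bases against 137. After the trends of GC content and length were removed, 292 of the 441 and 138 of the 315 genes were again in the class. For 9 of the 441 genes every culture lay under 3 reads, so that a difference in culture could not have been detected at this depth. All Hep3B cultures lay under 3 reads in 29 of the 441 and 29 of the 315 genes. The higher side in culture averaged at least 10 CPM in 288 of the 441 and 163 of the 315. At lower levels the added 1 CPM narrows differences, so absence in culture is less certain there. In 27 of the 315 genes all Hep3B tumours lay under 3 reads.

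**Figure D1:**
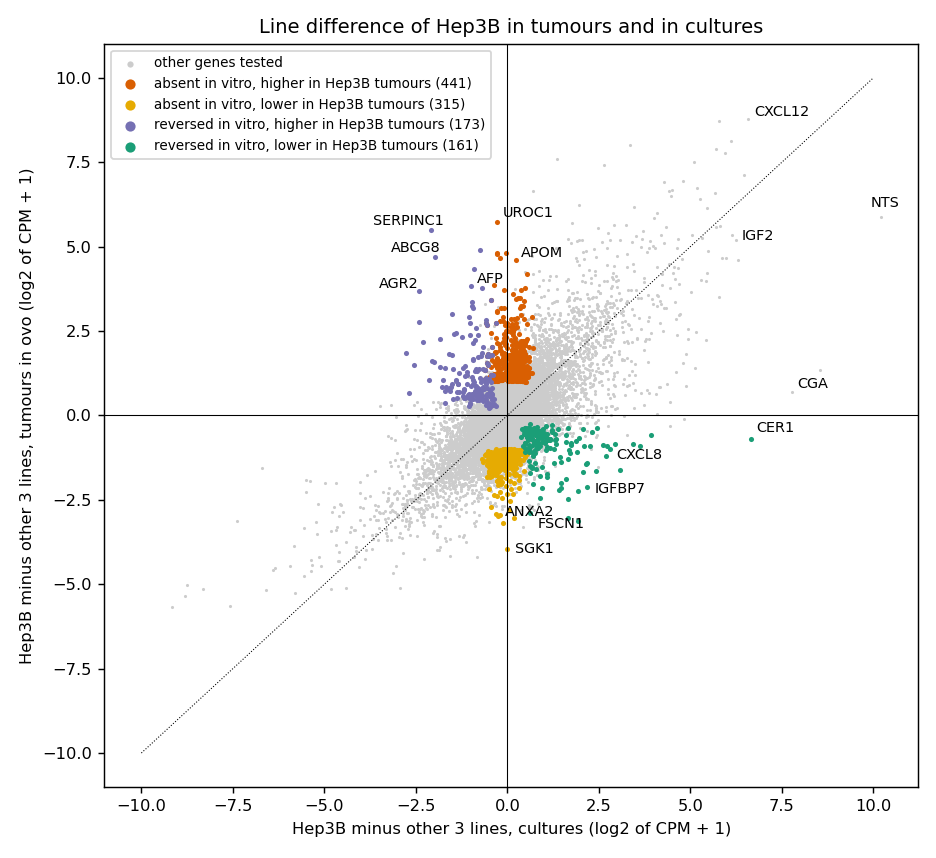
Difference of Hep3B from the mean of the other 3 lines for each of 13100 genes, in tumours (vertical axis) against cultures (horizontal axis), both in log2 of CPM + 1. Coloured points are the 441 and 315 genes whose difference was called absent in culture and the 173 and 161 genes whose difference was reversed. A gene can belong to both classes. The dotted line marks equal differences, and UROC1 (5.74 in tumours) and SGK1 (-3.96) lie close to the vertical axis.

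The difference was called absent in culture in 123 higher genes that did not overlap with any other tumour and averaged at least 10 CPM. Among these, the 10 with the highest differences included several products of the adult liver. Lack of overlap and a large difference (for reversed genes, a large interaction) were conditions for naming genes by this rule, here and below. For these genes they and their p-values are a description and not further support. UROC1, urocanase of histidine breakdown, had 162, 149, 100.03 and 92.2 CPM in Hep3B tumours, against 0 to 13.3 (median 0.222) CPM in other tumours. Every Hep3B tumour lay above every other tumour, of which the HepG2 tumours were the highest. Hep3B cultures had 0, 0.136 and 0.111 CPM and other cultures 0 to 1.21 CPM, so UROC1 was barely read in any culture. The difference in tumours was 5.74 ± 0.17 (adjusted p = 2.66e-19) and the interaction 6.01 ± 0.26 (1.03e-14).

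PLG, plasminogen, the precursor of the clot-dissolving enzyme plasmin, had 121, 121, 49.2 and 128 CPM in Hep3B tumours, against 0 to 37.8 (median 0.371) CPM in other tumours. The groups did not overlap, and Hep3B tumour 3 was the lowest of its group. Its difference was 4.82 ± 0.18 (adjusted p = 4.42e-17), while Hep3B cultures had 0.261, 0 and 0.332 CPM and other cultures 0 to 2.24 CPM. ITIH1, a heavy chain of a plasma protease inhibitor that binds hyaluronan, had 109, 120.1, 129.9 and 131 CPM in Hep3B tumours, against 0.172 to 49.2 (median 0.726) CPM in other tumours (4.78 ± 0.18, adjusted p = 3.37e-17). Hep3B tumours were again above all others, with HepG2 next. APOM, an apolipoprotein of high density lipoprotein that carries sphingosine-1-phosphate, was well read in cultures too. It had 1357, 1794, 2216 and 2078 CPM in Hep3B tumours, against 7.21 to 1046 (median 32.9) CPM in other tumours. In cultures Hep3B had 196, 224 and 209 CPM, against 23.5 to 2195 CPM in other lines, and the difference there was 0.22 (95% interval -0.28 to 0.73). APOM thus rose in Hep3B tumours over Hep3B cultures (3.12, adjusted p = 3.29e-09) and fell in the mean of the other lines (-1.25, 1.24e-06).

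The other 6 genes of this set have other roles. NT5E, the ectoenzyme CD73 that makes adenosine outside the cell, had 417, 376, 376 and 313 CPM in Hep3B tumours, against 16.6 to 43.6 (median 21) CPM in other tumours. In cultures NT5E had 24.7, 31.6 and 30.8 CPM in Hep3B and 22.9 to 68.7 CPM in the other lines, so Hep3B stood among them. MUC5B, a gel-forming mucin of airway and gland epithelium, had 99.95, 83.4, 31.7 and 69 CPM in Hep3B tumours, against 0 to 15.7 (median 0.397) CPM in other tumours, and was at 0 in all 3 Hep3B cultures. MYO1G, a myosin best known from blood cells, had 16.7, 55.2, 42 and 23.5 CPM in Hep3B tumours, against 0 to 0.68 (median 0.278) CPM in other tumours. The leukocyte markers summed to 16.9 to 38.9 CPM in Hep3B tumours, against 10.6 to 68.4 CPM in HepG2 tumours, 35.8 to 52.2 CPM in PLC/PRF/5 tumours and 9.44 to 13.1 CPM in HuH7 tumours, and their part in the MYO1G level was not tested. LFNG, a glycosyltransferase that modifies Notch receptors, had 153, 113, 44.1 and 90.5 CPM in Hep3B tumours, against 1.65 to 18.8 (median 5.76) CPM in other tumours. TMC8 had 21.8, 24.1, 11 and 23.2 CPM in Hep3B tumours, against 0 to 0.774 (median 0.0844) CPM in other tumours. BATF2, a transcription factor of the basic leucine zipper family, had 32.9, 34.4, 39.3 and 42.2 CPM in Hep3B tumours, against 0.172 to 10.8 (median 0.752) CPM in other tumours. As the choice of genes required, no Hep3B tumour overlapped with another tumour in any of them. Their differences ran from 3.7 for LFNG to 4.81 for MUC5B.

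**Figure D2:**
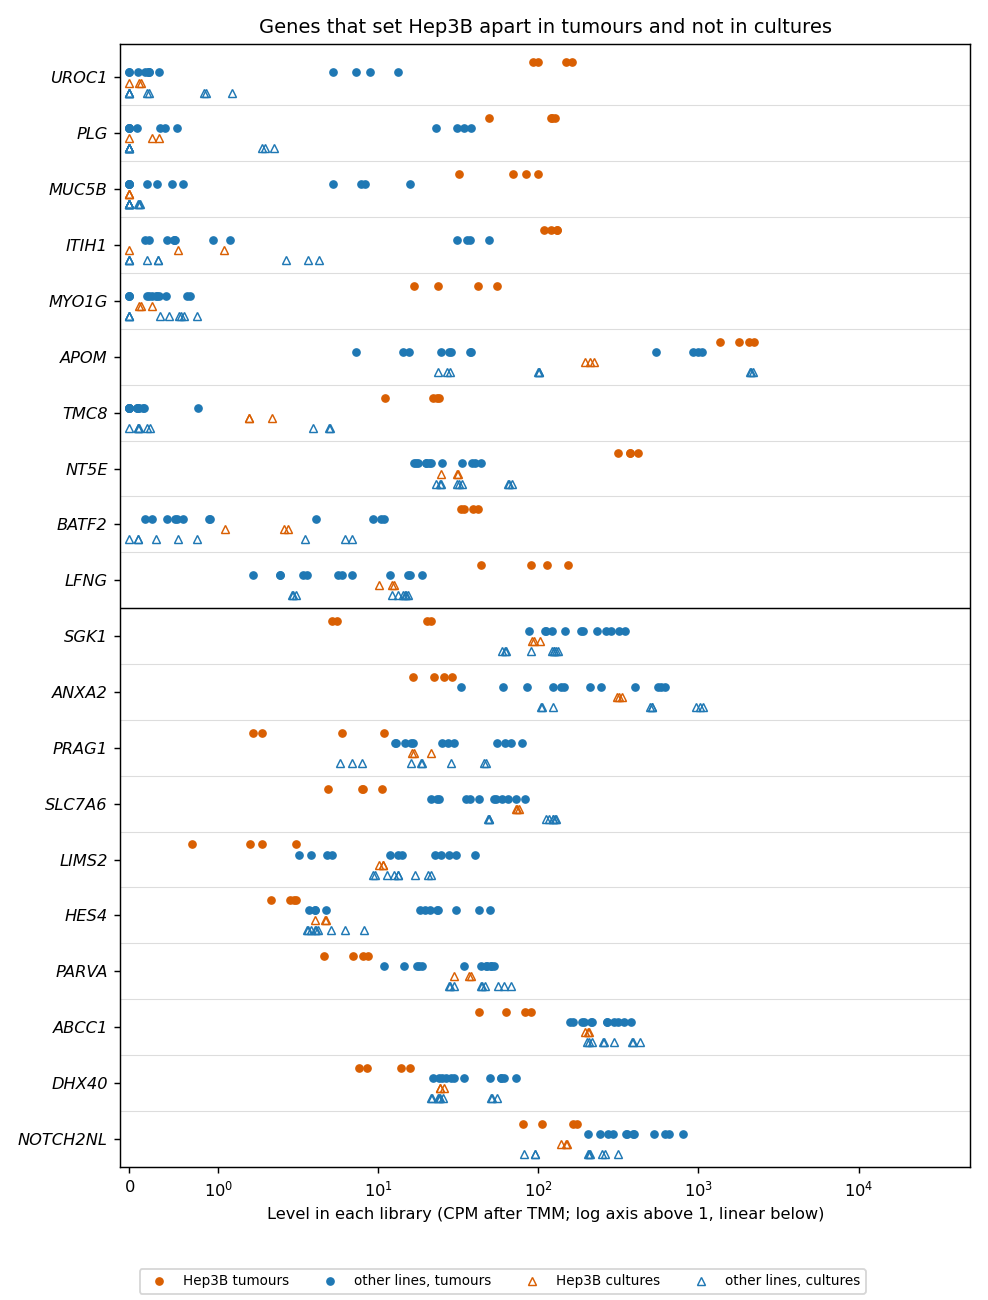
Level of 20 genes in each library, in CPM after TMM scaling, on an axis that is logarithmic above 1 and linear below. Circles are tumours and triangles cultures, orange Hep3B and blue the other 3 lines. By the choice of genes, Hep3B tumours lie right of all other tumours in the upper 10 (UROC1 at least 92.2 CPM against at most 13.3). In the lower 10 genes they lie left of them (SGK1 at most 21.2 against at least 87.6). The cultures of Hep3B lie among or near those of the other lines.

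30 genes met the same conditions in the other direction. SGK1, a kinase induced by glucocorticoids, serum and cell stress, had 5.51, 20.3, 21.2 and 5.16 CPM in Hep3B tumours, against 87.6 to 346 (median 187) CPM in other tumours. Tumours 1 and 4 were about equal and lower than tumours 2 and 3, and all 4 were below every other tumour. The difference was -3.96 ± 0.28 (adjusted p = 9.14e-12). In cultures SGK1 had 94, 102 and 91.4 CPM in Hep3B and 59.5 to 132 CPM in other lines, a difference with a 95% interval of -0.67 to 0.67. ANXA2, a calcium-dependent membrane protein that also docks plasminogen at the cell surface, had 25.9, 22.3, 16.4 and 28.8 CPM in Hep3B tumours, against 32.9 to 616 (median 178) CPM in other tumours. Hep3B cultures had 332, 321 and 311 CPM, above HepG2 and below the other 2 lines. ANXA2 fell in Hep3B tumours over Hep3B cultures by 3.75 on the log2 scale (adjusted p = 2.46e-08). PARVA and LIMS2, both members of the adhesion complexes that link integrins to actin, were lower as well. PARVA had 8.06, 6.93, 4.57 and 8.68 CPM in Hep3B tumours, against 10.8 to 52.9 (median 39) CPM in other tumours (-1.96, adjusted p = 1.92e-09). LIMS2 had 1.59, 3.08, 1.88 and 0.704 CPM in Hep3B tumours, against 3.18 to 40.2 (median 13.7) CPM in other tumours (-2.35, 8.65e-11).

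SLC7A6, an exchanger of cationic and neutral amino acids, had 4.88, 7.95, 10.5 and 7.97 CPM in Hep3B tumours, against 21.2 to 83.1 (median 47.7) CPM in other tumours. Its Hep3B cultures had 72.3, 75.3 and 73.8 CPM and other cultures 48.3 to 129 CPM. ABCC1, an efflux pump of drugs and glutathione conjugates, had 42.7, 82.9, 90.4 and 62.6 CPM in Hep3B tumours, against 159 to 381 (median 243) CPM in other tumours. ABCC1 passed in culture too (-0.48, adjusted p = 0.045), but within the bound. HES4, a transcription factor of the Notch pathway, differed through the other lines. It had 2.97, 2.82, 2.15 and 3.05 CPM in Hep3B tumours, against 3.71 to 49.8 (median 20.3) CPM in other tumours, and 4.05, 4.74 and 4.64 CPM in Hep3B cultures, against 3.58 to 8.19 CPM in other cultures. HES4 rose in the mean of the other lines (1.5, adjusted p = 3.9e-08), with a change of -0.55 in Hep3B (0.0822). PRAG1, DHX40 and NOTCH2NL completed the 10, with differences of -2.54, -1.69 and -1.65. NOTCH2NL is a multicopy gene close to NOTCH2, so its reads may be shared between copies.

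Among the reversed differences were liver genes read at low levels in Hep3B cultures. SERPINC1, antithrombin, the inhibitor of thrombin, had 512, 636, 653 and 942 CPM in Hep3B tumours, against 0.537 to 563 (median 3.38) CPM in other tumours. The highest HepG2 tumour lay above the lowest Hep3B tumour, and HuH7 and PLC/PRF/5 tumours were far below both. In cultures SERPINC1 had 1.31, 1.08 and 0.995 CPM in Hep3B and 0.19 to 113 CPM in the other lines. Its difference was 5.48 ± 0.17 in tumours (adjusted p = 1.24e-18) and -2.08 ± 0.20 in cultures (3.87e-09). ABCG8, a subunit of the canalicular sterol pump, had 239.8, 315, 475 and 400.1 CPM in Hep3B tumours, against 0.704 to 143 (median 9.89) CPM in other tumours, without overlap. In cultures ABCG8 had 0, 0.271 and 0.111 CPM in Hep3B, against 0 to 32.8 CPM in the other lines. The interaction of ABCG8 was 6.66 ± 0.27 (adjusted p = 7.47e-15).

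AFP, alpha-fetoprotein, the main plasma protein of the fetal liver, had 13843, 16720, 12720 and 18053 CPM in Hep3B tumours, against 120.01 to 27914 (median 332) CPM in other tumours. The 4 HepG2 tumours were higher than the Hep3B tumours in AFP, and the HuH7 and PLC/PRF/5 tumours lower. In cultures AFP had 141, 151 and 154 CPM in Hep3B, against 7810 ± 113 CPM in HepG2, 1859 ± 23.9 CPM in HuH7 and 0.844 ± 0.449 CPM in PLC/PRF/5 (SD, n = 3 each). Hep3B was thus below 2 of the 3 other lines in culture and below 1 of them in tumours. The difference was 3.83 ± 0.19 in tumours and -0.99 ± 0.21 in cultures, with an adjusted p of 3.91e-12 for the interaction. CPS1, the enzyme that brings ammonia into the urea cycle, had 266, 203, 198 and 434 CPM in Hep3B tumours and 6.4, 5.69 and 6.08 CPM in Hep3B cultures. It was higher in PLC/PRF/5 in both settings, with 1903 ± 165 CPM in PLC/PRF/5 tumours (SD, n = 4), so its reversal was against the mean of the lines and not against each. Without HuH7 its difference in tumours was -0.31 and did not pass.

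7 further genes of the reversed class did not overlap with other tumours and had the largest interactions beside ABCG8. AGR2, a disulfide isomerase of secretory epithelia, had 149, 115, 108 and 145 CPM in Hep3B tumours, against 2.4 to 55.6 (median 5.53) CPM in other tumours, and 0.131, 0.136 and 0 CPM in Hep3B cultures, against 1.3 to 17.2 CPM in other cultures. All Hep3B tumours were above, and all Hep3B cultures below, every library of the other lines in the same setting. CCR6, a chemokine receptor, had 121, 118, 142 and 99 CPM in Hep3B tumours, against 0.501 to 45.3 (median 4.14) CPM in other tumours, while Hep3B cultures (6.53, 5.42 and 5.3 CPM) lay below those of HepG2 and HuH7. EGR1 and DUSP5 belong to the growth factor response, EGR1 as an early transcription factor and DUSP5 as a phosphatase of nuclear ERK. EGR1 had 337, 468, 461 and 391 CPM in Hep3B tumours, against 22.3 to 70.8 (median 36.9) CPM in other tumours, and 214, 247 and 235 CPM in Hep3B cultures, against 128 to 638 CPM in other cultures. It fell in the mean of the other lines by 3.06 on the log2 scale (adjusted p = 2.94e-15) and rose in Hep3B by 0.82 (0.00194). DUSP5 had 99.2, 129, 136 and 129 CPM in Hep3B tumours, against 1.02 to 58.8 (median 25.1) CPM in other tumours (3.25 in tumours, -0.96 in cultures). GGT1, PCDH1 and COTL1 had differences of 3.78, 2.99 and 2.91 in tumours and -0.70, -1.52 and -1.05 in cultures. GGT1 has near-identical relatives, so its reads may be shared.

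In the other direction, only FSCN1 and NDUFS5 met the conditions on overlap and level. FSCN1, fascin, which bundles actin in cell protrusions, had 43.2, 48, 34.4 and 31 CPM in Hep3B tumours, against 101 to 672 (median 311) CPM in other tumours. In cultures it had 284, 298 and 297 CPM in Hep3B, above HepG2 and HuH7 and below PLC/PRF/5 (-2.88 in tumours, 0.63 in cultures). NDUFS5, a subunit of respiratory complex I, had 31.9, 33.3, 28.2 and 39.9 CPM in Hep3B tumours, against 43.7 to 79.3 (median 60.8) CPM in other tumours, and 105, 105 and 108 CPM in Hep3B cultures, against 59 to 104 CPM in other cultures. CER1 and CXCL8, followed whatever their values, and IGFBP7, of the insulin-like growth factor list, were reversed in this direction too. CER1, a secreted antagonist of Nodal and BMP, had 0.848, 5.13, 4.57 and 1.64 CPM in Hep3B tumours, against 0 to 142 (median 0.64) CPM in other tumours, where HuH7 tumours held nearly all of it. In cultures it had 134, 143 and 138 CPM in Hep3B, against 0 to 1.35 CPM in other lines, so it was highest in Hep3B among cultures and in HuH7 among tumours (interaction -7.36 ± 0.36, adjusted p = 1.5e-13). Without HuH7, CER1 was higher in Hep3B tumours than in the other lines (1.28), so its lower value rests on HuH7. Its difference in tumours was also above 0 with edgeR (0.10) and DESeq2 (0.20) on recovered reads and passed in neither, so the call as reversed depends on the test. CXCL8, the neutrophil chemokine interleukin-8, had 0.53, 0.513, 0.269 and 0.469 CPM in Hep3B tumours and 33.3, 30.6 and 32.8 CPM in Hep3B cultures, against 0 to 4.98 (median 3.05) CPM in other tumours. IGFBP7, an insulin-like growth factor binding protein, was at 0 in all 4 Hep3B tumours and had 32.2, 31 and 31.7 CPM in Hep3B cultures. The other tumours had 0 to 169.9 (median 0) CPM, and PLC/PRF/5 held nearly all of it.

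**Figure D3:**
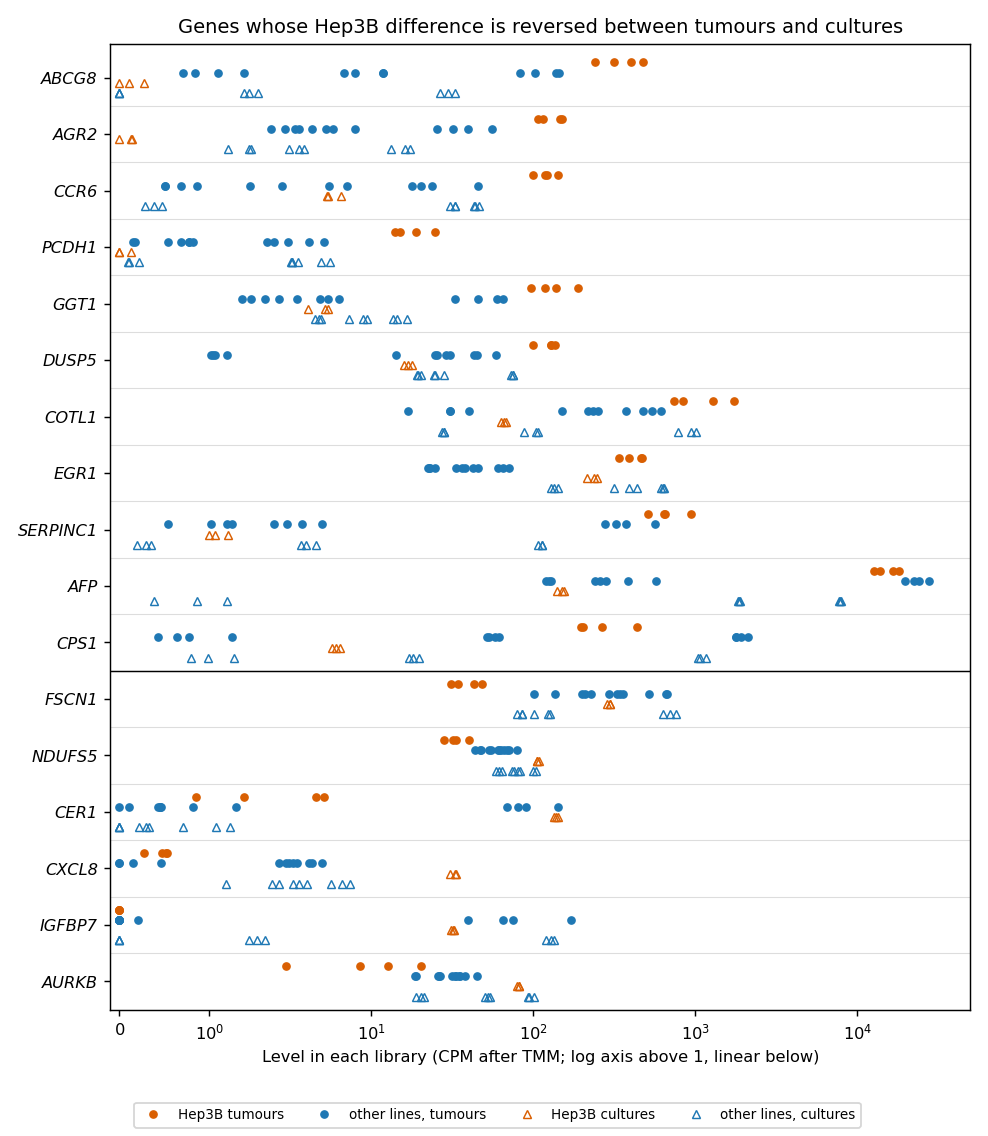
Level of 17 genes in each library, in CPM after TMM scaling, on an axis that is logarithmic above 1 and linear below, with symbols for 4 groups (circles for tumours, triangles for cultures, orange for Hep3B, blue for the other lines). Above the line, Hep3B tumours are high and Hep3B cultures low against the mean of the other lines. Below it the order is turned round. AGR2 is at least 108 CPM in Hep3B tumours and at most 0.136 in Hep3B cultures.

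Lists of genes with a common role were described by their counts. Where list counts with total counts alone are given, 1542 of the 13100 genes tested were higher and 7989 lower in tumours at that scaling. By the interaction these were 733 upward and 4336 downward. Of 27 genes of secreted hepatocyte proteins tested, 23 were higher and 3 lower in Hep3B tumours, against 18 and 6 in cultures. For all genes tested the shares higher and lower were 26.2% and 35.0% in tumours and 19.5% and 21.1% in cultures. By the interaction 12.7% passed upward and 12.8% downward, and these shares apply to the lists below as well. The median difference of the 27 genes was 3.83 in tumours and 1.85 in cultures, against -0.19 and -0.01 over all genes. Their interaction passed in 14 genes upward and 1 downward. 14 of the 27 were higher than in each other line. AHSG, fetuin-A, an inhibitor of calcification, had 19265, 22878, 20196 and 26344 CPM in Hep3B tumours, against 8.69 to 4076 (median 29.8) CPM in other tumours (7.49 in tumours, 5.11 in cultures). TTR, the thyroxine carrier transthyretin, had 1117, 803, 1067 and 925 CPM in Hep3B tumours, against 0.503 to 256 (median 28.3) CPM in other tumours (5.69 and 1.77). F2, prothrombin, had 2641, 2575, 1496 and 2732 CPM in Hep3B tumours, against 4.01 to 647 (median 21.8) CPM in other tumours (5.65 and 2.92). None of these 3 overlapped with another tumour. SERPINA1, alpha-1-antitrypsin, had 108861, 124441, 162021 and 77096 CPM in Hep3B tumours and 66822 ± 23571 CPM in HepG2 tumours (SD, n = 4), and their ranges overlapped. ALB, albumin, had 69.5, 41.3, 22.1 and 104 CPM in Hep3B tumours and 78.8, 70.7 and 77.6 CPM in Hep3B cultures, and its interaction did not pass (0.52, adjusted p = 0.618). The 3 lower genes were HP, FGA and FGB. HP, haptoglobin, had 0.53, 0.77, 0.538 and 0.469 CPM in Hep3B tumours, against 86.9 ± 30.6 CPM in HepG2 tumours (SD, n = 4), and did not pass without HepG2.

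Of 16 genes of the urea cycle and amino acid breakdown, 13 were higher and 2 lower in Hep3B tumours, against 6 and 5 in cultures, with medians of 2.19 and 0.37. The interaction passed upward in 11 and downward in 0. ARG1, arginase, which releases urea, had 179, 153, 236 and 183 CPM in Hep3B tumours, against 0 to 19.2 (median 1.2) CPM in other tumours (6.22 ± 0.28, adjusted p = 1.3e-15). AGXT, which disposes of glyoxylate, had 648, 742, 692 and 682 CPM in Hep3B tumours, against 2.47 to 573 (median 4.95) CPM in other tumours (5.15). All Hep3B tumours were above all others in both genes. GLUL, glutamine synthetase, which binds ammonia to glutamate, had 5059, 8043, 11560 and 5139 CPM in Hep3B tumours, against 71 to 3346 (median 1130) CPM in other tumours, and 535, 585 and 551 CPM in Hep3B cultures, against 19.8 to 1293 CPM in other cultures. NAGS, which makes the activator of CPS1, and TAT, tyrosine aminotransferase, were reversed like CPS1, with 2.27 and 1.05 in tumours and -1.85 and -0.95 in cultures. The 2 lower genes were OAT and SLC25A15.

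Of 22 genes of coagulation and complement, 16 were higher and 2 lower in Hep3B tumours, against 10 and 3 in cultures (medians 1.87 and 0.59), and the interaction passed in 13 upward and 2 downward. F7, the factor that starts clotting with tissue factor, had 2076, 3632, 5511 and 2453 CPM in Hep3B tumours, against 1.59 to 533 (median 133) CPM in other tumours (6.0). The difference of CFB, complement factor B, was called absent in culture. CFB had 104, 87.7, 57.8 and 70.6 CPM in Hep3B tumours, against 0.515 to 131 (median 6.8) CPM in other tumours, where HepG2 overlapped with Hep3B. It had 13.2, 11.9 and 14 CPM in Hep3B cultures, against 2.18 to 118 CPM in other cultures. With edgeR's test on reads the interaction passed in 3 upward and 3 downward of these genes, so the upward count of this list was not called by both tests.

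Of 23 genes of cholesterol synthesis 14 were higher and 1 lower in Hep3B tumours, against 2 and 1 in cultures, and the interaction passed in 10 upward and 0 downward (medians 0.89 in tumours and 0.18 in cultures). With total counts alone 6 were higher and 3 lower, and the interaction passed in 3 upward and 2 downward. MVK, mevalonate kinase, had 199, 355, 498 and 296 CPM in Hep3B tumours, against 44.6 to 143 (median 103) CPM in other tumours (1.79, adjusted p = 8.85e-08). LSS, which closes the sterol ring, had 345, 585, 624 and 669 CPM in Hep3B tumours, against 108 to 321 (median 185) CPM in other tumours (1.5). Neither overlapped with another tumour, and in cultures their differences were 0.21 and 0.10, neither past the threshold. In this list 16 genes fell and 1 rose between culture and tumour in the mean of the other lines, and 4 fell and 7 rose in Hep3B. Of 18 genes of fatty acid synthesis, 8 were higher and 1 lower in tumours, against 4 and 4 in cultures (6 and 6 in tumours with total counts alone). FASN, fatty acid synthase, had 14312, 14472, 15780 and 11799 CPM in Hep3B tumours, against 1145 to 6618 (median 3979) CPM in other tumours, and 7030, 7967 and 7208 CPM in Hep3B cultures, against 4521 to 13172 CPM in other cultures. ACLY, which supplies its acetyl-CoA, had a difference of 1.53 in tumours and 0.15 in cultures.

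Of 14 bile acid genes 11 were higher and 2 lower in Hep3B tumours, against 5 and 3 in cultures. With total counts alone 7 were higher and 3 lower, and the interaction passed in 3 upward and 5 downward, against 6 and 2. NR0B2, the nuclear receptor SHP that represses bile acid synthesis, had 2056, 4947, 9591 and 2779 CPM in Hep3B tumours, against 4.18 to 2042 (median 396) CPM in other tumours (4.84). FGF19, a hormone of bile acid control, had 51.2, 66.2, 71.3 and 46 CPM in Hep3B tumours, against 0 to 42.6 (median 0.922) CPM in other tumours, HuH7 being next (3.98 and 2.98). CYP7B1, an oxysterol hydroxylase, was read in Hep3B alone above 1 CPM, with 15.7, 10.3, 10.8 and 15.9 CPM in Hep3B tumours and 19.2, 15.9 and 18 CPM in Hep3B cultures. Of 15 drug metabolism genes 6 were higher and 3 lower in tumours (4 and 6 with total counts alone), and 2 and 5 in cultures. Among all genes tested 26.2% were higher and 35.0% lower in tumours, and 19.5% and 21.1% in cultures, so nothing is read from these counts. CYP2D6, which has a near-identical pseudogene, had 49.4, 68, 82.6 and 63.3 CPM in Hep3B tumours, against 0.34 to 13.1 (median 9.07) CPM in other tumours, and 3.92, 4.07 and 2.76 CPM in Hep3B cultures, against 0.117 to 9.82 CPM in other cultures.

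Of 23 transcription factors of the hepatocyte, 17 were higher and 4 lower in Hep3B tumours, against 16 and 3 in cultures, and the interaction passed in 4 upward and 4 downward, or 3 and 10 with total counts alone. HNF4A had 2126, 2165, 3124 and 1911 CPM in Hep3B tumours, against 46.2 to 2445 (median 1054) CPM in other tumours, and its difference was 1.87 in tumours and 1.84 in cultures. MLXIPL, the factor ChREBP of the response to glucose, had 3.99 and 2.03.

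Of 18 targets of TGF-beta and YAP, a pair of pathways of matrix and cell tension, 14 were lower and 3 higher in Hep3B tumours. In cultures 4 were lower and 4 higher (medians -1.5 in tumours and 0.06 in cultures). The interaction passed in 11 downward and 4 upward. Among all genes tested 35.0% were lower and 26.2% higher in tumours, and the interaction passed in 12.8% downward and 12.7% upward. In this list 0 genes were lower and 1 higher than in each other line, against 6.04% and 8.75% of all genes tested. The lower values are thus against the mean of the other lines and not against each. CTGF had 31.7, 46.2, 31.5 and 17.1 CPM in Hep3B tumours, against 7.19 to 1948 (median 239) CPM in other tumours. All 4 lay above PLC/PRF/5 and below the means of HepG2 and HuH7. In cultures CTGF had 413, 418 and 411 CPM in Hep3B, against 47.5 to 2068 CPM in other lines. AMOTL2, a junction protein that binds YAP, had 23.5, 18.2, 18.3 and 8.91 CPM in Hep3B tumours, against 14.8 to 986 (median 293) CPM in other tumours (-3.18 ± 0.25, adjusted p = 7.91e-11), overlapping with HepG2. Hep3B cultures had 143, 172 and 160.5 CPM of AMOTL2. THBS1, thrombospondin-1, was reversed, with 45.9, 16.4, 4.84 and 20.6 CPM in Hep3B tumours, against 20.4 to 144 (median 40.2) CPM in other tumours, and 423, 409 and 406 CPM in Hep3B cultures, against 19 to 240.3 CPM in other cultures. Its tumour groups overlapped. With 3 genes higher, the list did not move one way. TGFB1, the ligand, was higher than in each other line, with 609, 702, 967 and 706 CPM in Hep3B tumours, against 91.8 to 433 (median 212) CPM in other tumours. In this list 12 genes fell in Hep3B tumours over Hep3B cultures and 11 in the mean of the other lines.

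Of 25 mitosis genes 10 were lower and 3 higher in Hep3B tumours, whereas 9 were higher and 0 lower in cultures, and the interaction passed in 12, all downward. Over all genes tested 35.0% were lower and 26.2% higher in tumours, so the share of lower mitosis genes there was close to that of all genes, while 19.5% were higher and 21.1% lower in cultures and the interaction passed downward in 12.8%. MKI67, the proliferation marker, had 49.9, 58.5, 42 and 95.7 CPM in Hep3B tumours, against 9.27 to 157 (median 95.2) CPM in other tumours, and did not pass in either setting. AURKB, the kinase of chromosome alignment, was reversed, with 20.2, 8.47, 2.96 and 12.7 CPM in Hep3B tumours, against 18.6 to 44.6 (median 32.2) CPM in other tumours, and 81.2, 81.6 and 79.2 CPM in Hep3B cultures, against 18.9 to 101 CPM in other cultures. TK1, thymidine kinase, was reversed too (-0.95 in tumours, 0.48 in cultures). BUB1B was the other reversed gene of the mitosis list (-0.42 and 1.21), and it stood at 0.07 in tumours, not passing, once trends of GC content and length were removed. Among 25 genes of DNA replication 11 were lower and 3 higher in tumours, against 2 and 7 in cultures, and POLE, the leading strand polymerase, was an exception with 321, 574, 730.1 and 500.03 CPM in Hep3B tumours, against 100.4 to 237 (median 185) CPM in other tumours. With total counts alone 21 mitosis genes and 19 replication genes were lower, and 0 and 1 higher, where 7989 of the 13100 genes tested were lower and 1542 higher.

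Of 22 inflammatory mediators 10 were lower and 4 higher in Hep3B tumours (against 35.0% and 26.2% of all genes tested). In cultures 7 were lower and 10 higher (against 21.1% and 19.5%). The interaction passed in 9, all downward (against 12.8%). CXCL5 had 4.45, 10.8, 15.9 and 4.93 CPM in Hep3B tumours and 115, 108 and 111 CPM in Hep3B cultures, and CXCL6 had 0.53, 3.33, 4.57 and 2.81 CPM in Hep3B tumours and 43.5, 40.4 and 44.3 CPM in Hep3B cultures. Both are neutrophil chemokines. CXCL5 was among the 4 higher genes in tumours (1.41) although its highest level was in HuH7 (53.7 CPM), and CXCL6 did not pass there (adjusted p = 0.169). IL32 was lower in both settings, with 23.2, 15.1, 8.07 and 12 CPM in Hep3B tumours, against 84.5 to 1078 (median 501) CPM in other tumours. CXCL12, a chemokine of another branch, was the gene with the highest difference among those called in the same direction in both settings. It had 979.7, 720.3, 585 and 345 CPM in Hep3B tumours, against 0 to 2.23 (median 0.107) CPM in other tumours, and 96.3, 110.3 and 99 CPM in Hep3B cultures, against 0 to 0.218 CPM in other cultures.

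Of 20 targets of NRF2, a sensor of oxidative stress, 10 were lower and 5 higher in Hep3B tumours (against 35.0% and 26.2% of all genes tested). In cultures 13 were lower and 0 higher (against 21.1% and 19.5%). The interaction passed in 12, all upward (against 12.7%). With total counts alone 13 were lower and 2 higher in tumours, close to the shares of all genes at that scaling (7989 and 1542 of 13100). The interaction then passed in 7 upward and 1 downward, against 733 and 4336 of all genes. 15 of the 20 fell between culture and tumour in the mean of the other lines, and 4 fell in Hep3B. NQO1, a quinone reductase, had 16.1, 6.67, 2.96 and 7.51 CPM in Hep3B tumours, against 3.78 to 92.5 (median 48.3) CPM in other tumours, and 4.31, 4.74 and 5.86 CPM in Hep3B cultures, against 147 to 445 CPM in other cultures. HMOX1, heme oxygenase, rose in Hep3B tumours, with 323, 632, 4969 and 1357 CPM there, against 49 to 1237 (median 212) CPM in other tumours and 183, 209.9 and 189 CPM in Hep3B cultures, with tumour 3 far above the others. Of 21 immediate early genes 7 were higher and 9 lower in tumours, against 1 and 9 in cultures. With total counts alone they were 5 and 14 in tumours, where 1542 and 7989 of all 13100 genes were. The tumour counts of this list after TMM scaling were close to the shares of all genes tested, 26.2% higher and 35.0% lower. DUSP6, a phosphatase induced by ERK, had 373, 417, 449 and 322 CPM in Hep3B tumours, against 18.5 to 89.2 (median 35) CPM in other tumours (3.19), and a difference of 0.34 in cultures. SPRY2 and SPRY4, which damp the same pathway, had 1.51 and 2.55 in tumours. FOSL1 was lower in both settings (-3.54 and -2.67).

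**Figure D4:**
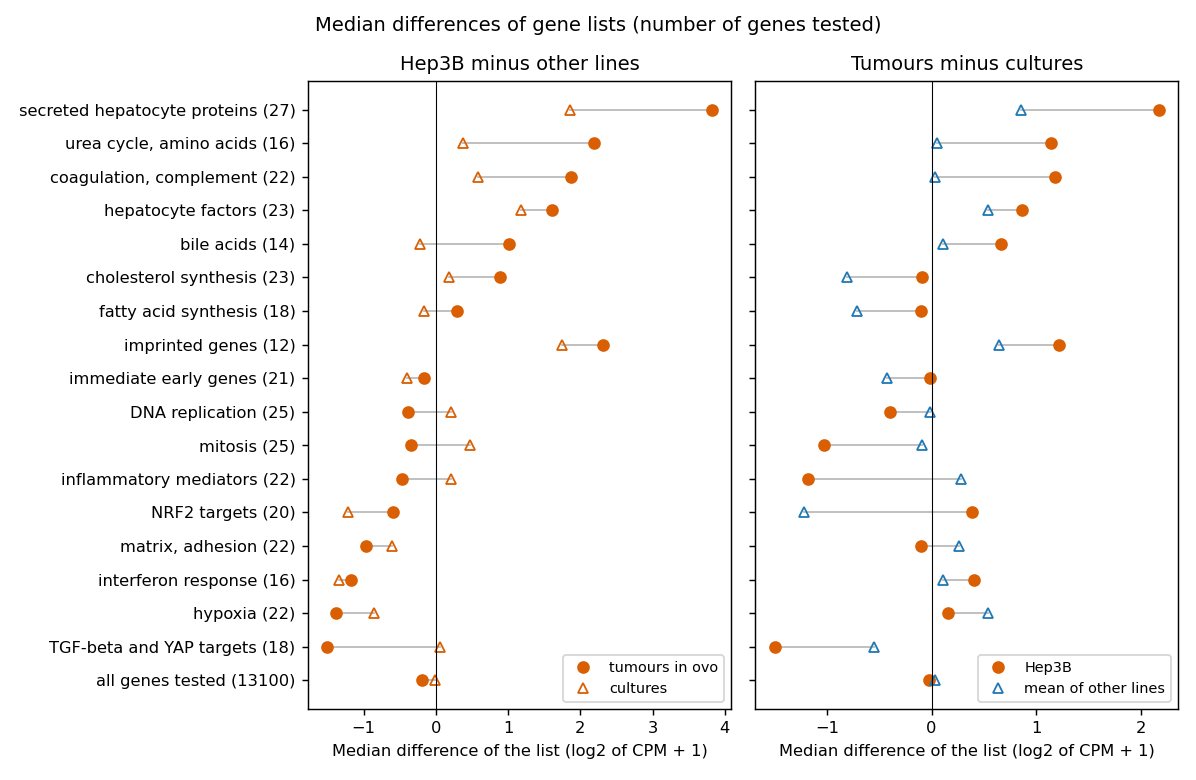
Median difference of 17 gene lists and of all genes tested, in log2 of CPM + 1, with the number of genes tested in brackets. The left panel shows Hep3B minus the other lines in tumours (filled circles) and cultures (open triangles), and the right panel tumours minus cultures in Hep3B (filled) and in the mean of the other lines (open). TGF-beta and YAP targets lie at -1.5 in tumours and 0.06 in cultures on the left, and NRF2 targets at 0.39 in Hep3B and -1.22 in the other lines on the right.

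Other lists held more lower than higher genes in both settings. CDKN1A, the cell cycle inhibitor p21, was lower in both settings (-3.34 and -5.57), with 24.4, 21, 21.8 and 6.8 CPM in Hep3B tumours, against 19.7 to 513 (median 344) CPM in other tumours. Of 16 interferon genes 13 were lower in tumours and 11 in cultures, and 1 was higher in each. BST2 had 4.56, 5.64, 10.5 and 9.15 CPM in Hep3B tumours, against 0.107 to 615 (median 203) CPM in other tumours, with HuH7 the lowest. Of 10 genes of antigen presentation 8 were lower and 1 higher in tumours. Of 22 hypoxia genes 18 were lower and 1 higher, against 11 and 3 in cultures. ENO2, an enolase, had 1.7, 3.85, 4.84 and 2.35 CPM in Hep3B tumours, against 9.79 to 200.3 (median 39.7) CPM in other tumours. The exception was EPO, erythropoietin, with 128, 168, 191 and 114 CPM in Hep3B tumours, against 1.11 to 163 (median 4.24) CPM in other tumours, where HepG2 overlapped with Hep3B. Of 22 matrix and adhesion genes 16 were lower and 0 higher, against 11 and 5 in cultures. COL4A2, a basement membrane collagen, had 0.106, 0.257, 0 and 0 CPM in Hep3B tumours, against 0.323 to 471 (median 2.47) CPM in other tumours, and PLC/PRF/5 held nearly all of it. Lower than in each of the 3 other lines were 6 of the 22 hypoxia genes, 2 of the 22 matrix genes and 1 of the 16 interferon genes, where 6.04% of all genes tested were.

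Of 12 imprinted genes 8 were higher and 1 lower in tumours, against 9 and 0 in cultures, and the interaction passed in 5 upward and 1 downward, or 3 and 4 with total counts alone. IGF2, a fetal growth factor, had 319323, 359700, 290987 and 172624 CPM in Hep3B tumours, against 267 to 117657 (median 22326) CPM in other tumours, without overlap, and 54682, 64111 and 57950 CPM in Hep3B cultures, against 4.37 to 13198 CPM in other cultures. Its difference was 5.2 in tumours and 6.25 in cultures, and the interaction was -1.05 (adjusted p = 0.224). With the other lines' share of reads subtracted from each tumour, an alternative chosen after seeing the data, the IGF2 interaction was 1.88 (adjusted p = 0.0165). DLK1, a Notch ligand of fetal liver, had 11594, 19544, 26132 and 11302 CPM in Hep3B tumours, against 1.5 to 4790 (median 21.1) CPM in other tumours (8.14 and 6.12). CDKN1C, the inhibitor p57, had 170.2, 227, 316 and 135 CPM in Hep3B tumours, against 0 to 57.5 (median 5.04) CPM in other tumours. CDH10, MEP1A and LINGO1 were the other genes of the 5 highest shared differences, at 8.73, 8.0 and 7.89. PGLYRP2, a peptidoglycan amidase of the liver, had 965, 1097, 1474 and 818 CPM in Hep3B tumours, against 1.01 to 221 (median 2.65) CPM in other tumours, and 1.44, 1.22 and 1.44 CPM in Hep3B cultures. 2 genes followed whatever their values were far higher in Hep3B cultures than in Hep3B tumours. NTS, neurotensin, had 551, 412, 302 and 485 CPM in Hep3B tumours and 14252, 13703 and 13911 CPM in Hep3B cultures, and CGA, the common subunit of glycoprotein hormones, had 1.27, 2.05, 1.34 and 0.704 CPM in Hep3B tumours and 232, 249.6 and 234 CPM in Hep3B cultures.

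Among the lowest shared differences were genes at or near 0 in Hep3B cultures. MYH9, a non-muscle myosin, had 19.7, 23.6, 10.8 and 1.17 CPM in Hep3B tumours and 0, 0.271 and 0 CPM in Hep3B cultures, against 292 to 1327 (median 456) CPM in other tumours. OSMR, the oncostatin M receptor, had 1.27, 6.67, 3.5 and 0.469 CPM in Hep3B tumours and 0.261, 0.271 and 0.111 CPM in Hep3B cultures, against 61.5 to 594 (median 150.1) CPM in other tumours. LIFR, the leukaemia inhibitory factor receptor, had 4.03, 4.62, 2.15 and 1.17 CPM in Hep3B tumours and 0.261, 0.271 and 0.221 CPM in Hep3B cultures, against 42.9 to 493 (median 151) CPM in other tumours. All 3 genes were lowest in Hep3B tumour 4 and highest in tumour 2, as was the share of the HuH7 level (0.186% and 2.35%), whereas the share of the HepG2 level was lowest in tumour 3 (0.112%) and highest in tumour 1 (0.626%). The part of either share in the reads of these genes was not tested. The interactions of MYH9 and OSMR passed (3.5 and 1.93). With the other lines' share of reads subtracted, the MYH9 interaction was 0.46 and the OSMR interaction 0.52, and neither passed, while both genes still passed as lower in tumours. GPATCH4 was lower by a like amount, at -5.16. RB1, the retinoblastoma protein, was lower in both settings too, with 6.78, 2.05, 2.42 and 3.52 CPM in Hep3B tumours, against 51.8 to 92 (median 58.7) CPM in other tumours.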

How the data were processed

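RNA of 16 tumours and 12 cultures was measured with a targeted panel of 18961 amplicons from 500 ng of RNA, per the labels' protocols. The deposited values are a signal scaled by the authors to a total of 500000 per library. The submitters' processing notes name hg38. Aligner and counting tool: not given in the sources used here. Whole reads were recovered from the steps of the values (at least 99.9684% within 0.01 of a whole number), and 1 damaged cell (KRT18 in PLC/PRF/5 tumour 2) took the reads missing from its library's total. Reads were converted to CPM with TMM factors (edgeR 4.0.16), filtered (minimum count 10, 13100 genes tested, 5861 not), and log2 of CPM + 1 was fitted with limma 3.58.1 over 8 groups (20 residual degrees of freedom), with Benjamini-Hochberg adjustment at 0.05. The fit was tested on simulated data. Floors of 3 reads cover counting error only. For single-line shares, CPM were taken without TMM scaling. Source genes had over 100 CPM in tumours and over 50 CPM in cultures of their line and under 0.3 CPM in cultures of the recipient line. In tumours of each remaining line they were more than 20-fold below the source level.

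The members, the 37 lists and the 28 genes followed whatever their values were chosen with earlier results of these data known. Other genes were named by rule: the 10 highest and 10 lowest absent differences and up to 8 reversed ones a direction without overlap and with at least 10 CPM, the 5 highest and 5 lowest shared ones, and up to 4 called genes per list by adjusted p. BUB1B, CXCL5, CXCL6, HMOX1, NAGS, SPRY2, SPRY4, TAT, TGFB1 and THBS1, and genes given by name without values, were chosen after their values were seen. Some genes that the rule names are not reported here. Alternatives were edgeR's quasi-likelihood test and DESeq2 1.42.0 on recovered reads, other scalings, filters, pseudocounts, bounds and left-out libraries or lines.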

Additional observations from a re-analysis of the deposited data

Results flagged for a closer look

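In 2 genes 1 of the 4 Hep3B tumours stood far from the other 3, which chance gives in about 1 in 20 groups. Hep3B tumour 3 had 49.21 CPM of PLG and 1496 CPM of F2, and it was the lowest of the 4 in both.

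In 23 of the genes described, the change between culture and tumour passed in opposite directions in Hep3B and in the mean of the other lines, and the difference between these changes passed as well. It was positive, with a rise in Hep3B and a fall in the other lines, in 18 of them. These were CCR6 (5.27), APOM (4.38), DUSP5 (4.20), NT5E (4.20), NAGS (4.13), EGR1 (3.88), TMC8 (3.67), LFNG (3.33), CFB (3.04), DUSP6 (2.85), CDKN1A (2.23), FASN (2.13), IGFBP1 (2.05), TAT (2.00), MLXIPL (1.96), TGFB1 (1.45), LSS (1.40) and ACLY (1.38), all as log2 differences. It was negative, with a fall in Hep3B and a rise in the other lines, in CER1 (-7.36), CGA (-7.07), SGK1 (-3.96), FSCN1 (-3.51) and PRAG1 (-2.62). Over all 13100 genes tested, 171 rose in Hep3B and fell in the other lines and 204 did the opposite, without a condition on the interaction. Many of the genes described were named for differences of this kind, so the split among them is not a result about all genes.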

How the results depend on the processing

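Scaling by total counts alone moved most counts: 1542 genes were higher and 7989 lower in Hep3B tumours, 733 and 4336 by the interaction, 410 and 2322 against each line, 122 and 1163 absent, and 80 and 448 reversed. A minimum of 2-fold left 1978 and 2148 in tumours, 1463 and 1390 in cultures, 1093 higher by the interaction, 619 and 372 against each line, and 32 and 25 reversed. edgeR called 1812 lower in cultures, 1073 and 1048 by the interaction, 280 and 174 absent and 115 and 95 reversed. Without the tumours numbered 3, the interaction called 2645 lower, 516 were absent and lower, and 264 and 327 reversed. A bound of 0.5 left 42 and 25 absent. A pseudocount of 5 gave 173 absent and lower, of which 94 were among the 315 of the main fit. With a pseudocount of 0.25 there were 255, of which 182 were among the 315. Without HepG2, 1760 and 1629 differed from each remaining line and 88 were reversed and higher. Without HuH7, 2214 and 1867 differed from each remaining line. With a line left out, fewer comparisons have to pass, so a rise in these counts follows from the condition. Of the 441 and 315 absent and 173 and 161 reversed genes, 216, 144, 53 and 80 were again in their class without HepG2. Without HuH7 these were 277, 180, 93 and 68, and without PLC/PRF/5 185, 91, 70 and 70.

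Leaving out 1 library at a time gave 3107 to 3638 higher and 3998 to 5033 lower in tumours, 2085 to 2807 and 2317 to 3014 in cultures, 1254 to 2042 and 1218 to 2486 by the interaction, 943 to 1281 and 678 to 1188 against each line, 316 to 593 and 213 to 663 absent, and 120 to 199 and 113 to 248 reversed. Leaving out Hep3B tumour 1 gave the highest counts of 1188, 663 and 248.

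Single values changed sign as follows, and the cause was not tested. With total counts the interaction of HNF4A was -0.74 and IGFBP1 in tumours -0.27. IGFBP1 was -0.19 with a pseudocount of 5, -0.58 without HuH7 and -0.36 without PLC/PRF/5. CER1 in tumours was 0.10 with edgeR, 0.20 with DESeq2 and 1.28 without HuH7. BUB1B in tumours was 0.072 with GC content and length trends removed, HP 0.0932 without HepG2, CPS1 -0.31 without HuH7 and LEFTY1 -1.1 without PLC/PRF/5. With the other lines' tumour reads subtracted, chosen after seeing the data, the GPATCH4 interaction was -0.40 and the IGF2 interaction 1.88.

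Equal replicate numbers did not pair the tumours throughout. Of 12 pairs with Hep3B 5 had a correlation over 0.1 (-0.138 to 0.619), and of 9 culture pairs 1 did (-0.159 to 0.153). All 3 pairs numbered 3 were among the 5 (0.117 to 0.527), and the tumours numbered 3 had the lowest TMM factor of their line in all 4 lines, so this number may mark a shared set, which the labels do not state. They carry the same letter in their titles, as the tumours numbered 4 do, while other numbers mix letters. With the replicate block, 540 and 440 genes were absent and 201 and 233 reversed. With the letter as the block, chosen after seeing the data, 517 and 440 were absent and 189 and 215 reversed, of which 425, 303, 164 and 152 were the same genes as without a block.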
